A study of Mus musculus with 4 samples.

Results

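The S100 genes described here are *S100a1*, *S100a4*, *S100a6*, *S100a8*, *S100a9*, *S100a10*, *S100a11*, *S100a13*, *S100a16* and *S100b*, 10 of the 24322 gene symbols listed in each library. They were picked by name as members of the S100 family, with earlier results of these data known. RNA-seq had been performed on retinal cells that FACS had sorted as mTFP-positive, in 4 libraries of 1 mouse each, and the question is how the S100 genes of these cells compare between control and *Rax* iCKO mice. All 4 mice carried Rlbp1-CreERT2 and R26-CAG-LoxP-mTFP1, were given tamoxifen at P4 and had their retinas taken at P14, and the labels name 129S6. The 2 *Rax* iCKO mice, numbered 7983 and 3914, were Raxflox/flox, and the 2 control mice, numbered 7984 and 3911, were Raxflox/WT, so that Cre can delete 1 *Rax* allele in the controls too. Cre recombinase is driven by a promoter fragment of *Rlbp1*, a gene of Müller glia that the pigment epithelium also uses, and it switches on the fluorescent protein mTFP1 by which the cells were sorted.

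S100 proteins are small proteins that bind calcium through EF-hand loops, usually pair up as dimers, and then bind other proteins. Inside cells they act on the cytoskeleton, on annexins at membranes and on enzymes, and some are released and act on receptors such as RAGE, the product of *Ager*. In the retina S100B is used as an antibody marker of Müller glia and astrocytes, the glia of the nerve fibre layer. S100A8 and S100A9 together form calprotectin, an abundant protein of neutrophils, and several S100 genes are known to be used by glia in injured tissue.

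The values are FPKM, which divide the fragments of a gene by its exon length and by the mapped fragments of the library, so the levels of different genes can be compared per length. FPKM summed to between 492728 and 616277 in a library, and between 7870 and 8720 symbols were listed at 0. Relative to mouse 7983, the depth estimated from the smallest steps between low values was 1.349 in mouse 7984, 0.983 in mouse 3911 and 0.987 in mouse 3914. *Rax* itself, the deleted gene, had an FPKM of 189 and 181 in the controls and 111 and 98.4 in the *Rax* iCKO mice, 56.6% of the control mean. *Rlbp1* and *Glul*, which define Müller glia, were abundant in all 4 libraries. *Rlbp1*, the gene whose promoter drives Cre, had 2616 and 2159 FPKM in the controls and 1292 and 1560 FPKM in the *Rax* iCKO mice, 59.7% of the control mean and without overlap (log2 difference -0.74, standard error 0.39, unadjusted p = 0.102, limma). *Glul* had 1702 and 1121 FPKM against 1002 and 1197 FPKM, which overlap. *Xist*, the RNA of the inactive X chromosome, had 24.5 and 21.2 FPKM in the controls and 0.0119 and 0.00605 FPKM in the *Rax* iCKO mice, and *Eif2s3y*, a Y-linked gene, had 43.7 FPKM in mouse 7983 and was listed at 0 in the other 3 libraries, so the genotype cannot be told apart from whatever sets *Xist* in these mice.

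Of the 10 genes, 9 sit on chromosome 3 and *S100b* on chromosome 10. In RefSeq positions on GRCm38.p6, 7 of them lie within 184.7 kb, in the order *S100a1* (chr3:90511034-90514330, minus strand), *S100a13* (chr3:90514233-90524581), *S100a16* (chr3:90537254-90543151), *S100a4* (chr3:90603770-90606045), *S100a6* (chr3:90612894-90614414), *S100a8* (chr3:90669071-90670034) and *S100a9* (chr3:90692630-90695721, minus strand), the others being on the plus strand. After a gap of 2825 kb, *S100a11* (chr3:93520496-93526288) and *S100a10* (chr3:93555117-93564645) follow on the plus strand within 44.15 kb. The 54 symbols of the files inside that gap were nearly silent in these cells. Of them, 7 were above 0 in any library, none reached the level for testing, and the highest FPKM was 0.952. *S100b* lies at chr10:76253836-76261319 on the plus strand. *S100a1* and *S100a13* share 98 bases on opposite strands, chr3:90514233-90514330, and whether the authors counted by strand is not given in the sources used here, so a read there could belong to either gene. In GENCODE models of the same build, *S100a1* and *S100a13* do not overlap, while *S100b* shares 1731 bases with *Dip2a* on the opposite strand. There *S100a4* shares 2115 of its bases with *Gm42674* on the same strand, a model not analysed here, so reads of that stretch cannot be split by strand.

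The bases before the start of 5 members are printed so that the promoters of genes that lay lower in the *Rax* iCKO mice (*S100a1*, *S100a16*, *S100a11* and *S100a6*) can be set beside that of *S100a4*, whose groups overlapped. They are RefSeq sequence of GRCm38.p6 read 5′ to 3′ on the strand of the gene, up to 250 bases and ending at the RefSeq start or before the first base that GENCODE places in an S100 exon. They cover chr3:90514466-90514580 on the minus strand for *S100a1*, chr3:90537004-90537253 for *S100a16*, chr3:93520246-93520487 for *S100a11*, chr3:90612644-90612881 for *S100a6* and chr3:90603520-90603769 for *S100a4*, the last 4 on the plus strand. Capitals mark the CG dinucleotides, where DNA can be methylated.
*S100a1*: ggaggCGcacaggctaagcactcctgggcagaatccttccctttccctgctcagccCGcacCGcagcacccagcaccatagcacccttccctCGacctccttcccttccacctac
*S100a16*: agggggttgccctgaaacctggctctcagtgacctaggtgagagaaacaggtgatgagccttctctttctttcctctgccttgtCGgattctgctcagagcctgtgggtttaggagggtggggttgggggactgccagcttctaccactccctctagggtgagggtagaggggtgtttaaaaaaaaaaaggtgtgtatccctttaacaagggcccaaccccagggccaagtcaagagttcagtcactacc
*S100a11*: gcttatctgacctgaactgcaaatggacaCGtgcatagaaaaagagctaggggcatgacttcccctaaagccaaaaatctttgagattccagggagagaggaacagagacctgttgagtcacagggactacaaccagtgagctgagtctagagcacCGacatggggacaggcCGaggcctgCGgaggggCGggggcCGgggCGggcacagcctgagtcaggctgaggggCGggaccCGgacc
*S100a6*: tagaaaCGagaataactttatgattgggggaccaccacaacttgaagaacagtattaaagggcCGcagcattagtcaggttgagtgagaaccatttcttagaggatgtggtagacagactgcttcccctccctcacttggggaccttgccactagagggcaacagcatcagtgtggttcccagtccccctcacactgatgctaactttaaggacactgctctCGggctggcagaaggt
*S100a4*: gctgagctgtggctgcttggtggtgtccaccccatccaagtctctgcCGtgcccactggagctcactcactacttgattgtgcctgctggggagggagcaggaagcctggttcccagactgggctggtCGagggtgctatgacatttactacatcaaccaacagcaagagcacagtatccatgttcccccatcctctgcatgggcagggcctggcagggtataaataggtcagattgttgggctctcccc
The window table holds 300 bases per start (250 before and 50 after it) and covers 9 of the 10 genes in 10 windows. It has no window of *S100a10* and has 2 of *S100a16*. CG dinucleotides numbered 15 in the window of *S100a11*, 14 in that of *S100a13* and 11 in that of *S100a1*, the last 2 windows sharing 204 bases. The remaining starts had fewer, with 6 at *S100a6*, 4 at *S100a8*, 3 at *S100b*, 2 at *S100a4* and *S100a9*, and 2 and 4 at the 2 starts of *S100a16*. Over all 32851 windows the median was 7 CG with quartiles of 3 and 20, so none of the members had more CG than the upper quartile. The letters TAATT, the core that homeodomain proteins such as *Rax* commonly bind, were searched on both strands and occurred in 27.0% of all windows. Among the members they occurred in 1 of 10 windows, that of *S100a6*, from base 44 after the start. The letters TATAAA, also searched on both strands, occurred in 13.6% of all windows and in 3 of those of the members, at *S100a4* from base -31, at *S100a8* from base -30 and at *S100a9* from base 1, where -1 is the last base before the start. These are matches of letters in the windows and not measured binding. The abundant genes *S100a1* and *S100a16* had neither motif in their windows.

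*S100a16* and *S100a1* were by far the most abundant S100 genes of the sorted cells. Together they held between 85.9% and 87.5% of the FPKM of the 10 genes in every library. *S100a1* ranked between 191st and 493rd of the 24322 symbols, and *S100a16* between 205th and 443rd. Averaged over the 4 libraries, their levels were 281 FPKM for *S100a16* and 269 FPKM for *S100a1*, and *S100a16* was the higher of them in 3 of 4 libraries. Their control ranges overlapped, so their order was not settled by the spread. The next was *S100a6* at 29.6 FPKM, then *S100a13* at 18.1 FPKM, *S100a11* at 13.2 FPKM and *S100a4* at 13.2 FPKM. *S100a6* stood above *S100a13*, and *S100a13* above *S100a11*, in all 4 libraries with no overlap in either group, whereas *S100a11* and *S100a4* overlapped in the *Rax* iCKO mice. At the low end were *S100a8* at 4.06 FPKM, *S100b* at 2.89 FPKM, *S100a9* at 2.52 FPKM and *S100a10* at 1.86 FPKM, and the ranges of these neighbours overlapped in at least the controls. *S100b*, the member best known as a glial marker, ranked only between 9428th and 11380th. The ratio of *S100a1* to *S100b* in FPKM was 143 and 81.5 in the control mice and 104 and 61.7 in the *Rax* iCKO mice.

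**Figure D1:**
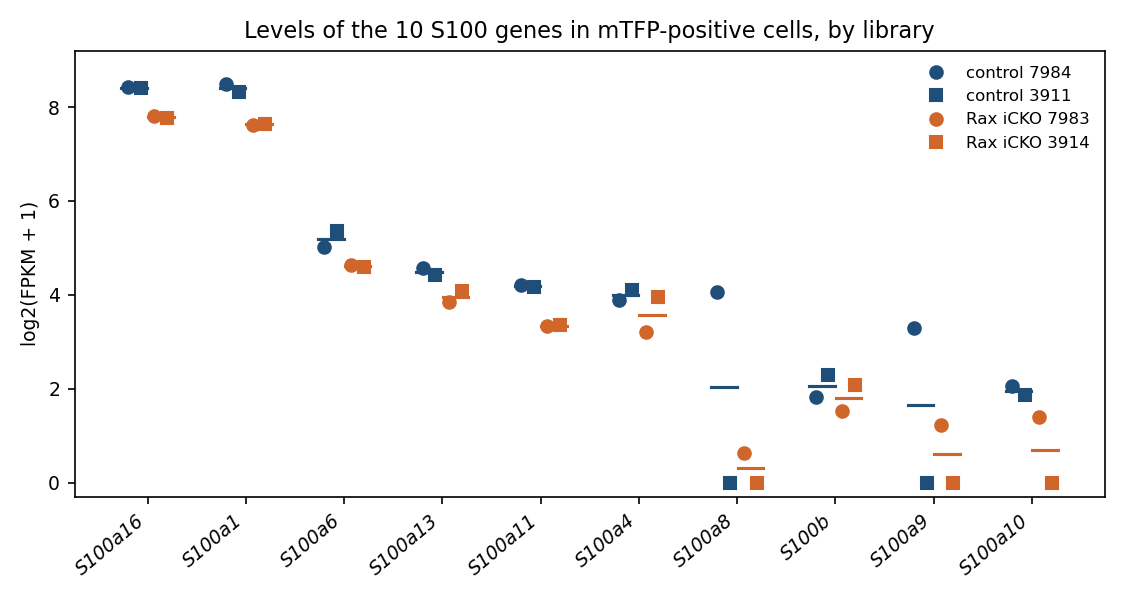
Level of each S100 gene on the y axis as log2(FPKM + 1), with genes on the x axis in order of their mean FPKM; blue points are the control libraries 7984 (circle) and 3911 (square), orange points the *Rax* iCKO libraries 7983 (circle) and 3914 (square), and lines are group means of 2. *S100a16* and *S100a1* stand far above the others, 6 genes have both orange points under both blue points, and *S100a8* and *S100a9* are high in control mouse 7984 alone.

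Summed over the 10 genes, S100 RNA was lower in the *Rax* iCKO mice. The sum was 818 and 759 FPKM in control mice 7984 and 3911 and 480 and 483 FPKM in *Rax* iCKO mice 7983 and 3914, which is 61.1% of the control mean. Leaving out *S100a1* and *S100a16* gave 115 and 101 FPKM in the controls against 59.9 and 65.8 FPKM, 58.2% of the control mean, so the lower sum was not set by the most abundant pair alone. This remainder holds *S100a8* and *S100a9*, at 15.7 and 8.77 FPKM in mouse 7984 and 0.556 and 1.33 FPKM in mouse 7983, so part of the 58.2% came from mouse 7984. It also holds *S100a10*, which like them averaged below 1 FPKM in the *Rax* iCKO mice. In mice 3911 and 3914, where *S100a8* and *S100a9* were at 0, the remainder was 101 and 65.8 FPKM. As a share of all FPKM, S100 RNA was 0.154% and 0.123% in the controls and 0.0974% and 0.0881% in the *Rax* iCKO mice. Fewer cells using a gene and less of its RNA per cell cannot be told apart in these bulk libraries.

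Of the 10 genes, 6, namely *S100a1*, *S100a6*, *S100a10*, *S100a11*, *S100a13* and *S100a16*, had both *Rax* iCKO libraries below both controls, and no S100 gene had both above. Over all 12363 genes tested, 14.1% lay wholly below and 15.4% wholly above. By limma on log2(FPKM + 1) the same 6 genes had an unadjusted p under 0.05, all lower in the *Rax* iCKO mice, where 1.6% of all genes were called lower and 1.26% higher at that limit. With all 4 libraries, *S100a1* and *S100a11* stayed under this limit in every alternative. *S100a16* lost it after quantile normalization and with equal medians, *S100a13* with equal medians and without the variance trend, *S100a6* without the variance trend, and *S100a10* with a pseudocount of 0.1 and with no filter. None of the 10 passed after Benjamini-Hochberg adjustment over all genes (adjusted p = 1.0 for each), as only 3 of 12363 genes, 0.0243%, did. The median log2 difference of the 10 genes was -0.70, with a range from -1.71 to -0.25, while the median of all genes was -0.0044. All 10 differences were below 0, as were 6275 of the 12363. *S100a8*, *S100a9* and *S100a10* had a mean below 1 FPKM in the *Rax* iCKO mice and entered the fit only through the controls, so a lower value was built into their entry. The other 7 genes had a median of -0.58 and a range from -0.84 to -0.25, and 5 of them lay wholly below the controls, each with an unadjusted p under 0.05. Between the mice numbered 7983 and 7984 the median difference was -0.70 over the S100 genes and -0.0087 over all genes, and between 3914 and 3911 it was -0.49 and 0.0018. Over the 7 genes it was -0.68 and -0.64. The count of S100 genes wholly below the controls was also 6, with the same 6 genes, after quantile normalization and after setting equal medians. The count with an unadjusted p under 0.05 was 1 without mouse 7983, 0 without mouse 3914, 2 without mouse 7984 and 4 without mouse 3911, while 1.42%, 0.574%, 1.99% and 2.21% of all genes were called lower in those fits. These fits set 2 libraries against 1, with the lone library assumed to vary like the other group.

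**Figure D2:**
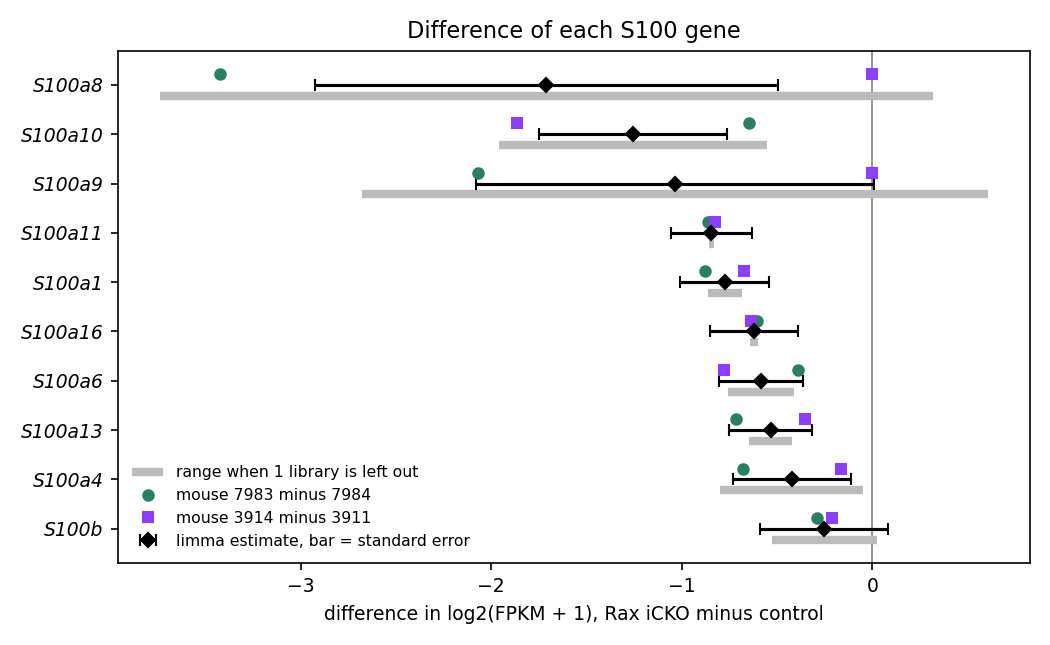
Difference of each S100 gene on the x axis, in log2(FPKM + 1), *Rax* iCKO minus control, with genes on the y axis; diamonds are limma estimates with bars of 1 standard error, green circles and violet squares are mouse 7983 minus 7984 and mouse 3914 minus 3911, and grey bars span the estimates when 1 library is left out. *S100a1*, *S100a11* and *S100a16* have both pairs at -0.61 or below, while *S100a8* and *S100a9* differ in 1 pair and are at 0 in the other.

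*S100a1*, which is best known for tuning calcium release through ryanodine receptors in muscle and neurons, had 361 FPKM in control mouse 7984, 319 in control mouse 3911, 196 in *Rax* iCKO mouse 7983 and 200 in the other *Rax* iCKO mouse, 3914. The groups were far apart relative to their spread, with means of 340 ± 29.8 FPKM (SD, n = 2) in the controls and 198 ± 2.61 FPKM (SD, n = 2) in the *Rax* iCKO mice, 58.2% of the control mean. The log2 difference was -0.77 with a standard error of 0.23 (unadjusted p = 0.016, limma). Mouse 7983 differed from 7984 by -0.88 and mouse 3914 from 3911 by -0.67, and leaving out any 1 library left it between -0.86 and -0.69.

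*S100a16*, an S100 protein of many tissues whose role is less settled, had 342 and 339 FPKM in control mice 7984 and 3911 and 224 and 218 FPKM in *Rax* iCKO mice 7983 and 3914. The gap between groups was much wider than the gap within either. The means were 341 ± 1.66 FPKM and 221 ± 4.58 FPKM (SD, n = 2 each), so the *Rax* iCKO level was 64.9% of the control. The log2 difference was -0.62 with a standard error of 0.23 (unadjusted p = 0.0357, limma), and the mouse pairs gave -0.61 and -0.64. Rescaling the libraries ended the call, at -0.46 after quantile normalization (unadjusted p = 0.0756, limma) and -0.64 with equal medians (unadjusted p = 0.0526, limma).

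*S100a11*, a partner of annexin A1 with roles in membrane repair and cell growth, had 17.4 FPKM in mouse 7984 and 17.1 in mouse 3911, against 9.11 in mouse 7983 and 9.23 in mouse 3914. Each group was tight and the *Rax* iCKO level was 53.2% of the control. The log2 difference was -0.84 with a standard error of 0.21 (unadjusted p = 0.00736, limma), the lowest p among the S100 genes. Leaving out any 1 library gave between -0.86 and -0.83. Its difference was thus nearly the same whichever mouse was left out, although it too missed the adjusted threshold.

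*S100a6*, called calcyclin, which binds the calcyclin-binding protein and annexins and is found in fibroblast-like and glial cells, had 31.4 and 40.2 FPKM in the control mice and 23.7 and 23.0 FPKM in the *Rax* iCKO mice. The *Rax* iCKO mean was 65.3% of the control mean. Its controls spread more than its *Rax* iCKO libraries, and the log2 difference of -0.58 (standard error 0.22, unadjusted p = 0.0371, limma) was -0.39 in mouse 7983 against 7984 and -0.78 in mouse 3914 against 3911. *S100a13*, which takes part in the release of FGF1 and IL-1α without a signal peptide, had 22.6 and 20.6 FPKM in the controls and 13.4 and 15.9 FPKM in the *Rax* iCKO mice. Its groups did not overlap, and the *Rax* iCKO mean was 67.8% of the control mean. The log2 difference was -0.53 with a standard error of 0.22 (unadjusted p = 0.0493, limma), close to the limit. In RefSeq *S100a1* and *S100a13* share the overlap given above. Their values are not independent if such models were used and reads were split without regard to strand.

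*S100a10*, also called p11, is a member that does not bind calcium and forms a complex with annexin A2 at the plasma membrane. It had 3.15 and 2.64 FPKM in control mice 7984 and 3911 and 1.65 FPKM in *Rax* iCKO mouse 7983, and the other *Rax* iCKO mouse, 3914, was listed at 0. The smallest whole numbers of reads that give these values are 18, 11, 7 and 0. The log2 difference was -1.26 with a standard error of 0.49 (unadjusted p = 0.0438, limma). With a pseudocount of 0.1 it was -2.83 (unadjusted p = 0.0742, limma) and with no filter p was 0.0523, so the call depended on the setting. It also depended on mouse 3914, since the pair of 3914 and 3911 gave -1.86, the pair of 7983 and 7984 gave -0.65, and leaving out 1 library at a time gave values from -1.96 to -0.55. *Anxa2*, the gene of its partner annexin A2, had 2.61 and 3.40 FPKM in the controls and 2.44 and 2.01 FPKM in the *Rax* iCKO mice, a log2 difference of -0.31 with a standard error of 0.28 (unadjusted p = 0.317, limma) that ran from -0.45 without mouse 7984 to -0.17 without mouse 3911.

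The groups of *S100a4* and *S100b* overlapped. *S100a4*, which binds non-muscle myosin and marks motile and fibroblast-like cells, had 13.7 and 16.3 FPKM in the controls, 8.19 FPKM in *Rax* iCKO mouse 7983 and 14.4 FPKM in *Rax* iCKO mouse 3914. Mouse 7983 was well below the other 3 libraries, and without it the log2 difference of -0.42 (standard error 0.31, unadjusted p = 0.221, limma) was -0.05. Without mouse 3914 it was -0.80 (unadjusted p = 0.076, limma). *S100b* had 2.53 and 3.91 FPKM in the controls and 1.89 and 3.23 FPKM in the *Rax* iCKO mice, a log2 difference of -0.25 with a standard error of 0.34 (unadjusted p = 0.482, limma). Both mice of the run numbered from 3911 were above the mice numbered 7983 and 7984 in *S100b*, whatever the genotype. Within each run the *Rax* iCKO mouse was the lower, by -0.29 and -0.21. Without mouse 7983 the estimate for *S100b* was 0.02. The 5 genes whose profile over the 4 libraries was nearest to that of *S100b* were *Eif6*, *Rplp0*, *Top1*, *Nudt16* and *Gnb2l1*, at Euclidean distances of 0.0128 to 0.05 in log2(FPKM + 1) centred on its mean, where a gene with no difference between libraries would be at 0.574. These are 5 of 12362 genes compared over 4 points, and none is a glial marker of the lists used here.

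An exact permutation test over the 4 libraries (two-sided), the test for a single gene, cannot go below 0.333 with 2 mice against 2. It gave that smallest value for the 6 genes whose groups did not overlap, 0.667 for *S100a4* and *S100b*, and 1.0 for *S100a8* and *S100a9*.

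*S100a8* and *S100a9* were high in 1 control mouse and near or at 0 elsewhere. *S100a8* had 15.7 FPKM in mouse 7984, a control, and 0.556 FPKM in mouse 7983, and *S100a9* had 8.77 FPKM and 1.33 FPKM in the same mice. Neither was above 0 in mice 3911 and 3914, a control and a *Rax* iCKO mouse. The smallest whole numbers of reads for these values are 38 and 1 for *S100a8* and 9 and 1 for *S100a9*. Thus the groups overlapped, and the log2 differences of -1.71 (standard error 1.21, unadjusted p = 0.208, limma) and -1.04 (standard error 1.05, unadjusted p = 0.361, limma) came from mouse 7984. Without that mouse they were 0.32 and 0.61.

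Other neutrophil genes were detected mainly in the same library. Of the 19 genes of the neutrophil list found in the files, 16 were above 0 in control mouse 7984, 7 in the other control, 5 in *Rax* iCKO mouse 7983 and 6 in the other *Rax* iCKO mouse. Above 0 in mouse 7984 only were 8 of them: *Ngp* (2.95 FPKM), *Retnlg* (1.35 FPKM), *Camp* (0.79 FPKM), *Ltf* (0.371 FPKM), *Hdc* (0.214 FPKM), *Mpo* (0.167 FPKM), *Elane* (0.11 FPKM) and *Mmp8* (0.0349 FPKM). These encode granule proteins and other products of neutrophils and their precursors, and none of the 19 was above 0 only in any of the other 3 libraries. The count by library was made after the values of *S100a8* had been seen. Of all 24322 symbols, 1.33% were above 0 only in mouse 7984, which was also the deepest library, against 2.44% only in mouse 3911, 1.22% only in mouse 7983 and 0.991% only in mouse 3914. Summed over the list, FPKM was 11.8 and 7.01 in the controls and 5.51 and 5.94 in the *Rax* iCKO mice. The most abundant genes of the list, *Cxcr2* and *Prtn3*, did not follow *S100a8*, with 1.27 and 1.74 FPKM in mouse 7984 and 2.39 and 2.94 FPKM in mouse 3911. *Stfa1*, *Stfa2l1* and *BC100530* were at 0 in all libraries. The part of neutrophil RNA in the *S100a8* and *S100a9* values was not tested. The 5 genes nearest to *S100a8* in profile, at distances of 0.562 to 0.816 where a flat gene would be at 3.37, were *Snora17*, *Snora15*, *Snord15b*, *Mir697* and *Mir7-1*, all listed at 0 outside mouse 7984. Each of these is a very short RNA, for which 1 read makes a large FPKM.

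**Figure D3:**
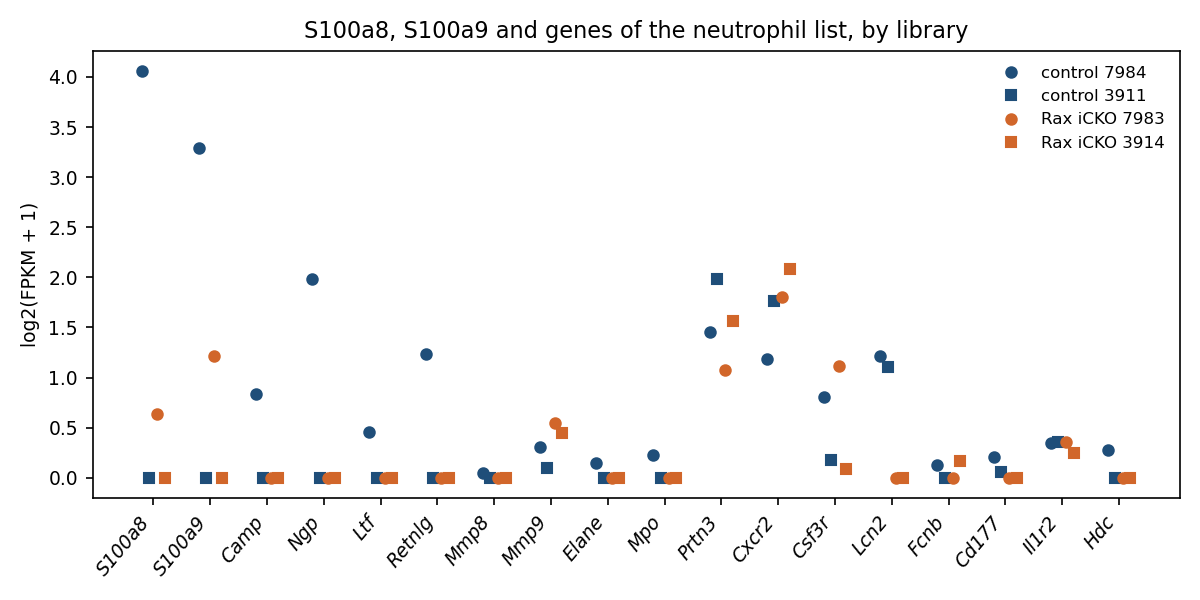
Level on the y axis as log2(FPKM + 1) of *S100a8*, *S100a9* and the neutrophil genes named on the x axis, with control libraries in blue (7984 circle, 3911 square) and *Rax* iCKO libraries in orange (7983 circle, 3914 square). *S100a8* and *S100a9* reach 15.7 and 8.77 FPKM in control mouse 7984, where 8 genes of the neutrophil list are also the only time above 0, while *Cxcr2* and *Prtn3* are present in all 4 libraries.

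Other S100 genes were at or near 0. Of 10 further family members looked for, 7 were in the files, and *S100a2*, *S100a5*, *S100g* and *S100z* were at 0 in all 4 libraries. *S100a14* had 0.148 FPKM in mouse 3911 and 0.145 FPKM in mouse 7983, and *S100a7a* had 0.196 FPKM in mouse 7983, and the values of *S100a14* can come from as little as 1 read each. *S100a3*, a neighbour in the same cluster known from hair cuticle, was the exception, with 3.69 and 2.11 FPKM in the controls and 1.24 and 1.26 FPKM in the *Rax* iCKO mice. Its groups did not overlap and the log2 difference was -0.76 with a standard error of 0.32 (unadjusted p = 0.0554, limma), on values worth as few as 12, 5, 3 and 3 reads. It was -0.79 after quantile normalization (unadjusted p = 0.0345, limma), -0.78 with equal medians (0.0407) and unchanged without the variance trend (0.0362), and leaving out 1 mouse gave -1.06 (without 3911) to -0.47 (without 7984).

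The partners and receptors of S100 proteins were evenly split between higher and lower. Of 29 such genes listed, 20 were tested, 10 were lower and 10 higher in the *Rax* iCKO mice, and the median log2 difference was 0.0003. By limma 0 of the 20 passed the adjusted threshold and 0 had an unadjusted p under 0.05 in either direction. Of the 20, 5 lay wholly below the controls and 4 wholly above, against 14.1% and 15.4% of all genes. *Anxa6*, an annexin, had a difference of -0.57, which ran from -1.02 without mouse 3911 to -0.11 without mouse 7984, with 54.7 and 28.7 FPKM in the controls and 31.7 and 22.1 FPKM in the *Rax* iCKO mice, which overlap. *Syt1*, the calcium sensor of synaptic vesicles that S100A13 binds, was at 119 and 147 FPKM in the controls and 185 and 207 FPKM in the *Rax* iCKO mice, a log2 difference of 0.56 (unadjusted p = 0.0531, limma), or 0.71 after quantile normalization (unadjusted p = 0.0051, limma). *Fgf1*, whose product S100A13 helps to release, had a difference of 0.52, *Kcnk3*, a potassium channel that reaches the membrane with S100A10, 0.50, *Ager*, the receptor gene, 0.42, and *Anxa5*, another annexin, -0.40. By limma none of these 4 had an unadjusted p under 0.05 in the comparison of all 4 libraries without a block, and leaving out 1 mouse gave 0.33 to 0.71 for *Fgf1*, 0.12 to 0.88 for *Kcnk3*, whose groups overlapped, 0.17 to 0.67 for *Ager* and -0.69 to -0.12 for *Anxa5*. The lowest values of *Kcnk3* and the largest of *Anxa5* came without mouse 3911, the other ends without mouse 7984, and those of *Ager* without mice 7983 and 3914. With a pseudocount of 0.1 the differences of the low genes *Fgf1* and *Ager* were 0.85 and 0.64. *Fgf1*, among the 4 partners wholly above the controls, averaged 0.991 FPKM in the controls and 1.86 FPKM in the *Rax* iCKO mice. It entered the fit only through the latter, so a higher value was built into its entry.

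Summed markers of rods and glia were also at a lower level in the *Rax* iCKO mice. Summed FPKM of the rod list, led by *Sag* and *Pde6g*, was 1909 and 1825 in the controls and 1275 and 1084 in the *Rax* iCKO mice, 63.2% of the control mean. All 9 rod genes were lower, 8 of them without overlap, where 14.1% of all genes lay wholly below, and their median log2 difference was -0.70. By limma 4 of the 9 had an unadjusted p under 0.05, as did 1.6% of all genes in that direction, and 0 an adjusted one. Müller glial markers, led by *Apoe* and *Car2*, summed to 21910 and 17130 FPKM in the controls and 15030 and 14830 FPKM in the *Rax* iCKO mice, 76.5% of the control mean. Of the 18 Müller markers tested, 16 were lower, 5 lay wholly below the controls and 1 wholly above, with a median of -0.31, where 14.1% and 15.4% of all genes did so, and 0 of the 18 had an unadjusted p under 0.05 by limma. Astrocyte markers without *S100b* summed to 50.4 and 41.2 FPKM in the controls and 27.9 and 29.1 FPKM in the *Rax* iCKO mice, of which *Aldh1l1*, a gene also used by Müller glia, made up 44.2 and 30.5 FPKM against 22.4 and 20.9 FPKM. Relative to these lists, the S100 sum was 3.73 and 4.43 per 100 FPKM of Müller markers in the controls and 3.19 and 3.26 in the *Rax* iCKO mice, which did not overlap. The Müller sum is dominated by abundant genes such as *Apoe*, at 87.3% of its control mean. Per 100 FPKM of *Rlbp1* alone the S100 sum was 31.3 and 35.1 in the controls and 37.2 and 31.0 in the *Rax* iCKO mice, which overlap. Per 100 FPKM of rod markers it was 42.8 and 41.6 against 37.7 and 44.6, which also overlap. These ratios were computed after the values had been seen, and the part of rod or glial RNA in the S100 differences was not tested.

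The summed markers of fibroblasts and vessels, whose cells also use S100 genes, overlapped between the groups. Fibroblast markers summed to 13.8 and 14.4 FPKM in the controls and 15.6 and 13.8 FPKM in the *Rax* iCKO mice. Endothelial markers summed to 495 and 249 FPKM against 411 and 264 FPKM, and pericyte markers to 27.3 and 12.1 FPKM against 25.6 and 13.9 FPKM. The only tested fibroblast genes lay apart in opposite directions, with *Pdgfra* at 5.58 and 5.10 against 4.40 and 1.84 FPKM and *Col1a2* at 7.88 and 8.97 against 10.4 and 11.7 FPKM. Epithelial markers were low, at 6.29 and 5.31 FPKM against 4.83 and 4.52 FPKM, with *Krt5*, *Krt14*, *Krt12* and *Cdh1* at 0 in all libraries, and did not overlap between the groups. Microglial markers ranged from 19.4 FPKM in mouse 3914 to 110 FPKM in mouse 7983 (64.9 and 74.0 FPKM in the controls), monocyte markers were at 31.3 and 18.6 against 45.7 and 26.1 FPKM, erythroid markers at 9.04 and 22.4 against 16.1 and 0.559 FPKM, and pigment epithelium markers at 8.11 and 9.52 against 11.5 and 12.2 FPKM with *Mlana* at 0. Of these only the pigment epithelium sums did not overlap, being higher in the *Rax* iCKO mice. Mouse 3914, in which *S100a10* was listed at 0, was thus also the library with the lowest microglial and erythroid sums. Of the retinal neurons other than rods, cone markers were at 157 and 199 against 142 and 199 FPKM, bipolar cell markers at 3004 and 7872 against 4112 and 6491 FPKM, amacrine markers at 14.2 and 14.2 against 17.2 and 10.2 FPKM, horizontal cell markers at 1.35 and 1.49 against 1.47 and 1.24 FPKM, and ganglion cell markers at 11.7 and 16.3 against 12.2 and 7.04 FPKM. All of these neuronal sums overlapped between the groups. The bipolar sum is mostly *Pcp2*, and of the 8 bipolar genes tested, 4 lay wholly above the controls and 0 wholly below, 1 had an unadjusted p under 0.05 by limma (higher), and the median log2 difference was 0.38, where 15.4% and 14.1% of all genes lay wholly above and below and 1.26% were higher at that p.

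**Figure D4:**
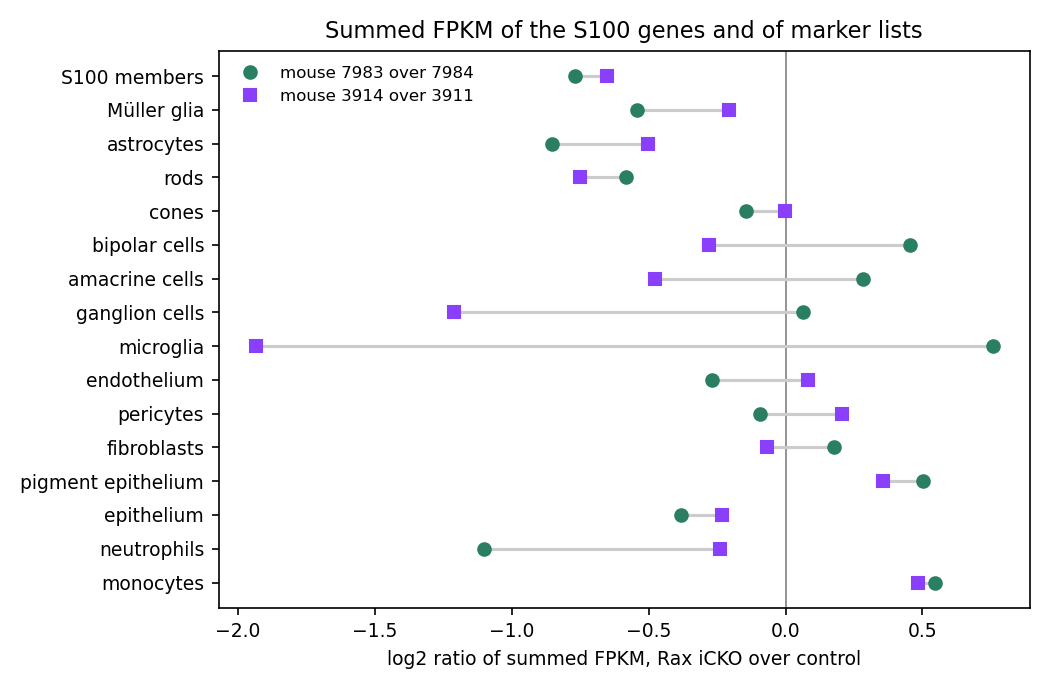
Log2 ratio of summed FPKM, *Rax* iCKO over control, on the x axis for the 10 S100 genes and for marker lists on the y axis; green circles are mouse 7983 over 7984 and violet squares mouse 3914 over 3911. The S100 genes, Müller glia, astrocytes, rods, epithelium, neutrophils and cones (narrowly in mouse 3914 over 3911) lie below 0 in both pairs. Bipolar cells, microglia and endothelium lie on different sides of 0 in the 2 pairs.

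The neighbours before the first S100 cluster were looked at to see whether the lower levels covered the chromosome region, a comparison added after the values were seen. Of the 10 tested genes before *S100a1*, spanning 272 kb, *Creb3l4* and *Chtop* lay wholly below the controls, and 0 of the 10 lay wholly above or had an unadjusted p under 0.05 by limma. Over all genes 14.1% lay wholly below and 15.4% wholly above, and 1.6% and 1.26% had such a p in each direction. The median log2 difference of the 10 was 0.035, with a range from -0.50 to 0.34. The farthest of them, *Creb3l4*, was at -0.50, and the nearest to *S100a1*, *Chtop*, *Snapin* and *Ilf2*, were at -0.22, -0.01 and 0.06. No test of the region was made.

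**Figure D5:**
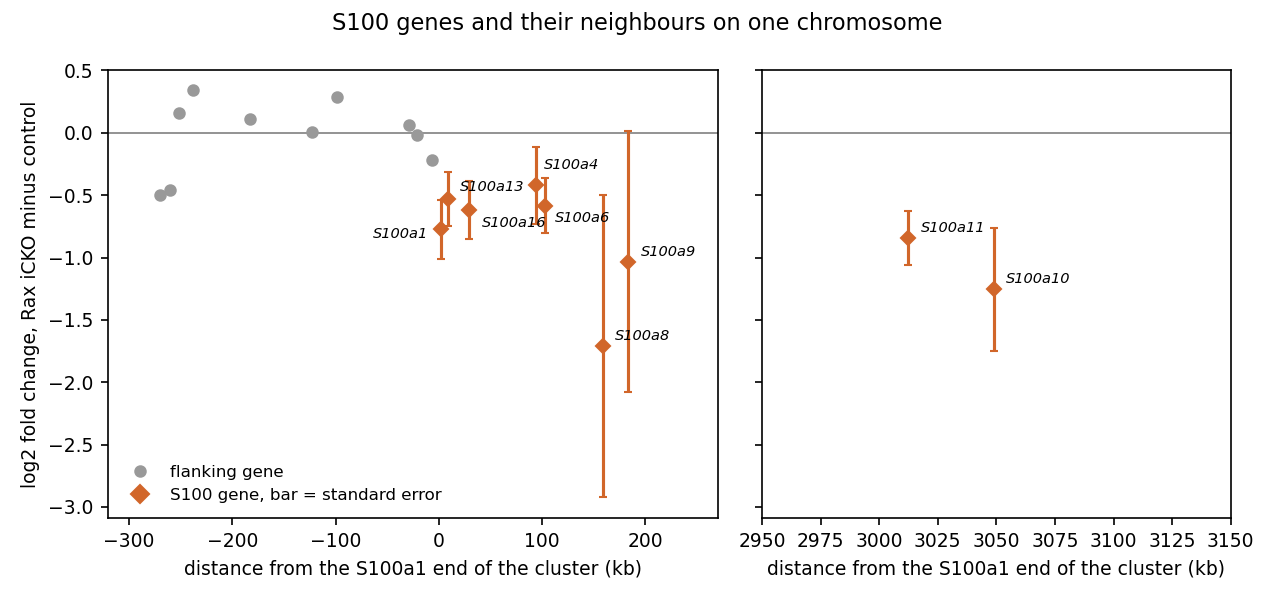
Log2 fold change, *Rax* iCKO minus control, on the y axis against distance in kb from the *S100a1* end of the cluster on the x axis, in 2 panels for the first and second cluster; orange diamonds are S100 genes with bars of 1 standard error and grey points the 10 tested genes before *S100a1*. All 9 diamonds lie below 0, and the 10 grey points scatter between -0.50 and 0.34. Among the diamonds, *S100a8*, *S100a9* and *S100a10* entered the fit only through the controls, so a lower value was built into their entry.

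S100 transcripts are short, and short or abundant genes as a whole were somewhat lower in the *Rax* iCKO mice, which was also looked at after the values were seen. The longest transcript of a member in GENCODE ranged from 498 bases for *S100a4* and *S100a8* to 1484 bases for *S100b*, and 8 of the 10, all but *S100a16* and *S100b*, were under 1000 bases. Over the 624 tested genes under 1000 bases the median log2 difference was -0.22 and 21.5% lay wholly below the controls. Among 1064 genes averaging 100 FPKM or more, as *S100a1* and *S100a16* do, these were -0.18 and 22.3%. Genes of 10 to 100 FPKM, the range of *S100a4*, *S100a6*, *S100a11* and *S100a13*, had a median of -0.01 and 14.8%, and genes of 1 to 10 FPKM a median of 0.05 and 11.7%. The part of length and level in the S100 values was not tested.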

How the data were processed

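RNA was from FACS-sorted cells of 4 mice, and SMART-Seq HT and Nextera XT kits are named in the labels. The authors aligned reads with TopHat (mm10) and deposited Cufflinks FPKM per gene. The submitters' notes name TopHat2 2.1.1, Bowtie2 2.2.8, SAMtools 0.1.18 and Cuffdiff 2.2.1. The files hold no read counts, and depth ratios come from the steps between low values. FPKM were used without rescaling. The comparison of control with *Rax* iCKO used limma 3.58.1 (lmFit, eBayes with trend; R 4.3.3) on log2(FPKM + 1) for the 12363 genes averaging 1 FPKM or more, adjusted by Benjamini-Hochberg, where a pseudocount of 1 shrinks differences of low genes. Single genes were compared by exact permutation tests in scipy 1.17.1. The fit was tested on simulated data. P-values rest on the spread between mice, 1 library each. In limma the spread of each gene is drawn toward that of genes of like level, so it is not that gene's own spread alone.

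The 10 members, the partner list and 17 marker lists were chosen with earlier results of these data known. Named are all members, other S100 genes above 0, the 6 partners with the largest differences plus *Anxa2*, the top markers of a list where a result turned on it, the 5 genes nearest in profile to *S100a8* and *S100b*, and *Rax*. Other genes, including *Xist*, *Eif2s3y*, single neutrophil genes and chromosomal neighbours, were named after their values were seen. The fit was repeated with 0.1 as pseudocount, with all genes above 0 or only those averaging 5 FPKM or more, after quantile normalization or with medians set equal, without the trend, with a block for the run of mouse numbers, and without each mouse in turn. The labels state no pairing of mice. The replicate numbers used here put mouse 7983 with 7984 and mouse 3911 with 3914, as the runs of mouse numbers do.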

Additional observations from a re-analysis of the deposited data

How the results depend on the processing

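Of 106 values of single S100 genes under the alternatives, 101 kept their direction and their side of the adjusted threshold, 3 turned direction and 2 passed the threshold. The directions turned for *S100b* without mouse 7983 and for *S100a8* and *S100a9* without mouse 7984. Leaving out 1 mouse gave -0.53 to 0.0249 for *S100b*, -3.74 to 0.319 for *S100a8* and -2.68 to 0.609 for *S100a9*. With a block by run of mouse numbers, for which the labels give no pairing, limma called 71 genes (0.574%) and 1 member, *S100a1* (adjusted p = 0.0314, against 0.0511 for *S100a11* and 0.0639 for *S100a16*), and 9 members had an unadjusted p under 0.05, where 8.87% of all genes did so in that direction. Leaving out 1 mouse gave 0 to 1 members past the adjusted threshold, the 1 being *S100a8* (adjusted p = 0.0277) without control mouse 3911, where 20 genes (0.162%) passed and mouse 7984 was the lone control of a gene that entered only through the controls, and 0 to 4 members lower with an unadjusted p under 0.05. That count was 4 to 9 under the other alternatives. The median of the S100 genes was -0.60 with a mean FPKM of at least 5, which leaves 6 members, -0.59 after quantile normalization, and -0.74 to -0.58 without 1 mouse. For the partner genes the median turned to -0.0352 with no filter, -0.0352 with a mean FPKM of at least 5, -0.0156 after quantile normalization and -0.0222 with equal medians, and ran from -0.112 to 0.0794 without 1 mouse. Partners lower with an unadjusted p under 0.05 were 1 with no filter, 3 with the block and 0 to 2 without 1 mouse, and partners higher were 1 with no filter, 1 after quantile normalization, 3 with the block and 0 to 1 without 1 mouse. With 2 mice a group, *S100a8*, *S100a9* and *S100a10* were listed at 0 or may rest on 1 read in some libraries, and absence of a call does not show equal levels.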
